A study of Homo sapiens with 12 samples.

Results

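The genes described are 59 genes of distal chromosome arm 15q, from *RPP25* to *TARSL2* (chromosome 15, 74954418 to 101724473, GRCh38), a stretch of 26.77 Mb. They were picked because genes of this stretch read lower in LV-MEIS1 than in Control cells. The values of that comparison therefore chose the list, and they are given below as a description with no test. The tables list 13951 genes, and 57 of the 59 are among them. *DNAJA4* and *CPEB1* were not analysed here. All 57 had a mean of at least 5 CPM (counts scaled to library size) over the 12 libraries, and no filter on low values was applied.

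RNA was sequenced from CWR22Rv1 cells, an established human prostate carcinoma line derived from a xenograft that relapsed after castration of the host. Of 4 groups with 3 libraries each, Control cells carried exogenous Cas9 without a guide RNA, and LV-MEIS1 cells expressed MEIS1 from a lentivirus. Libraries labelled HOXB13ko came from a Cas9 line in which HOXB13 was targeted with a transfected guide, with 6 clones recombined into a single pool, and the HOXB13ko-LV-MEIS1 group was that pool with the same MEIS1 lentivirus. The sources do not say whether the LV-MEIS1 cells also carried Cas9. All cells grew in puromycin with serum and were harvested 48 h after seeding. Because each group is 1 line or pool, replicates show only the spread between samples of it, which may be technical, and a property of the line cannot be told apart from its label. DNA copy number was not measured.

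Neighbouring genes on a chromosome arm usually have unrelated functions and are regulated one by one. In cancer cells a shared shift of many neighbours is a known mark of a gained or lost chromosome segment, where RNA tends to follow gene dosage while single genes depart from it through their own regulation. Genes whose products work in a complex with products from other chromosomes, and genes with a paralog elsewhere, allow a member to be read beside a gene that the segment does not carry.

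The targeted and introduced genes and the lineage markers were read first. *MEIS1* was between 45.8 and 49.6 CPM in LV-MEIS1 against 4.05 to 4.45 CPM in Control, and between 29.4 and 30.1 CPM in HOXB13ko-LV-MEIS1 against 3.42 to 3.65 CPM in HOXB13ko. *HOXB13* mRNA was not lower in the libraries labelled HOXB13ko. It lay between 307 and 347 CPM there, against 185 to 215 CPM in Control, so the mRNA level does not show the knockout. A small insertion or deletion made by Cas9 need not lower the mRNA, and the study's methods describe western blots of the protein in the clones, which were not analysed here. The luminal markers *KRT8* and *KRT18* were above 269 CPM in all libraries, and *PTPRC*, *PECAM1* and *KRT5* are not listed. *COL1A1*, a fibroblast marker, was between 30.0 and 34.6 CPM in LV-MEIS1 and at most 19.6 CPM in the other libraries, and its part in the results was not tested.

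Promoters of 6 genes are printed to show the sequence before the start of members at both ends of the range and of the members that hold a searched motif. RefSeq (GRCh38.p14) gave a promoter for 49 of the 57 genes, and for 36 of them an entry within 500 bases of the GENCODE gene start. Searched were TGACAG, a core of MEIS sites, and CAATAAA, a core of HOXB13 sites, both with their reverse complements CTGTCA and TTTATTG. Capitals mark these motifs. Each sequence is the 250 bases before the start, 5′ to 3′ on the strand of the gene. *RPP25* (chr15:74956773-74957022, minus strand) and *CIB1* (chr15:90233942-90234191, minus strand) had the lowest values among the 36, *IQGAP1* (chr15:90387992-90388241, plus strand) and *MAN2A2* (chr15:90902132-90902381, plus strand) the highest, and *FURIN* (chr15:90868338-90868587, plus strand) and *SNUPN* (chr15:75626306-75626555, minus strand) hold the motifs.
RPP25: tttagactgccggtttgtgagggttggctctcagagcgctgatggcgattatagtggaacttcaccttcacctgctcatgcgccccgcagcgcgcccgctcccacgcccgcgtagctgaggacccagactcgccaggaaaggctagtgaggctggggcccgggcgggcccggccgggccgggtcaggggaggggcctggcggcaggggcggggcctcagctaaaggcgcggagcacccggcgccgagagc
CIB1: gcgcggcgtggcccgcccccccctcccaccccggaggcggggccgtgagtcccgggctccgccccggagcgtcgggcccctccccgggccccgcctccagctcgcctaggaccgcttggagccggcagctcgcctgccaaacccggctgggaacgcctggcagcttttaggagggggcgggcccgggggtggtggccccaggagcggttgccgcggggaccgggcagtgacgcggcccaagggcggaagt
IQGAP1: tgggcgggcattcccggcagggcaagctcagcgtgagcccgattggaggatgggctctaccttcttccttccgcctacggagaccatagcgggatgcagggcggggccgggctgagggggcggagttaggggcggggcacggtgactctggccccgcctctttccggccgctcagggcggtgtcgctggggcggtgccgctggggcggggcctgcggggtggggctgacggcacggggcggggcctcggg
MAN2A2: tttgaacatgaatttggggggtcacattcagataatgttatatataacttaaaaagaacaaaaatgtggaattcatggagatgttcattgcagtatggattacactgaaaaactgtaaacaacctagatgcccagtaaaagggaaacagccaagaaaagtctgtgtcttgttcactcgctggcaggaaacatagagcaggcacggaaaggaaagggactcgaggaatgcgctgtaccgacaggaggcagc
FURIN: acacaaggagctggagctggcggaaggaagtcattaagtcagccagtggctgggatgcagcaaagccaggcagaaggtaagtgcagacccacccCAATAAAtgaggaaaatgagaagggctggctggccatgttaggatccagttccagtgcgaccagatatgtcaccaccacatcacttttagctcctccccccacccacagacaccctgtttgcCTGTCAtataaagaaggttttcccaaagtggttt
SNUPN: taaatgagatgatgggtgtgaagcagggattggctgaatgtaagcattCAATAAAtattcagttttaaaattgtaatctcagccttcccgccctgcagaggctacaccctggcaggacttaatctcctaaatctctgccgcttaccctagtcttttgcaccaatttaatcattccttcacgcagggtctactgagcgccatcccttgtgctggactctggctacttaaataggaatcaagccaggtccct

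Over 300 bases, from 250 before to 50 after the start, TGACAG in either orientation was found in 1 of the 36 promoters (2.8%), that of *FURIN*, and in 15.8% of all 35116 RefSeq promoter entries. CAATAAA was found in 2 of 36 (5.6%), those of *FURIN* and *SNUPN*, against 4.0% of all entries. The other 34 held neither. A match or its absence describes only the letters of these windows. The windows of *RPP25*, *CIB1* and *IQGAP1* are rich in G and C, with 70.4%, 79.2% and 74.4%, while *MAN2A2* has 42.0%, so both a gene that read far lower in LV-MEIS1 and one that did not have a GC-rich start.

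In LV-MEIS1, 56 of the 57 genes were below their Control level. The median log2 fold change was −0.56 on the log2(CPM + 0.5) scale, with quartiles at −0.77 and −0.42, while the median over all 13951 genes was 0.01. As a plain ratio of mean CPM the median was 0.672, and 33 of the 57 genes fell between 0.6 and 0.8. For 53 genes all 3 LV-MEIS1 libraries were under the lowest Control library, and for 0 genes all 3 were over the highest. Over all genes, 25.1% had all LV-MEIS1 libraries lower and 26.3% had them all higher, and nothing is read from the members' count because this comparison chose them. In bulk RNA a lower level in every cell cannot be told apart from a loss in some of the cells.

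The shift was of similar size in the 3 libraries. The members' median difference from the Control mean was −0.54, −0.55 and −0.61 in LV-MEIS1 replicates 1, 2 and 3. It was 0.09, 0.11 and 0.12 in HOXB13ko, and 0.10, 0.12 and 0.14 in HOXB13ko-LV-MEIS1. The 3 LV-MEIS1 libraries stood apart from the other 9, and their distance from Control was among the values that chose the list. The summed level of the 57 genes was 3447 ± 25.9 CPM in Control (SD, n = 3), 2353 ± 22.4 CPM in LV-MEIS1, 3809 ± 17.4 CPM in HOXB13ko and 3881 ± 39.96 CPM in HOXB13ko-LV-MEIS1.

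**Figure D1:**
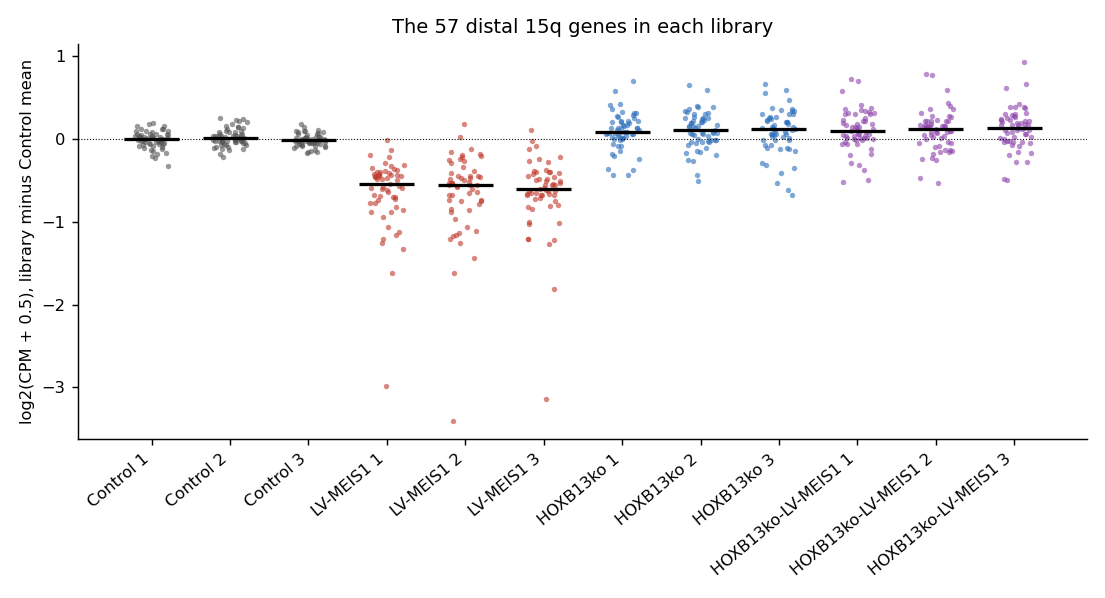
Each point is 1 of the 57 distal 15q genes in 1 library, as log2(CPM + 0.5) minus the mean of the 3 Control libraries (vertical axis); bars mark the median of each library. The 3 LV-MEIS1 medians lie between −0.61 and −0.54 and those of both HOXB13ko groups between 0.09 and 0.14.

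Along the map the lower level of most genes began close to *RPP25*, where the chosen stretch starts. The 5 listed genes next to it on the centromere side had log2 fold changes of −0.18 (*COX5A*), −0.03 (*FAM219B*), −0.19 (*MPI*), −0.07 (*SCAMP2*) and −0.39 (*ULK3*). *COX5A* ends 16.3 kb before the stretch, and *RPP25* itself stood at −1.23 and *SCAMP5*, the next gene, at −1.68. Farther out on the centromere side, *SEMA7A* was at −0.97, while *ARID3B*, which lies nearer to the stretch, was at 0.12. The 310 listed chromosome 15 genes outside the stretch had a median of 0.04, and no listed gene lies beyond *TARSL2*, so the stretch runs to the last listed gene of the arm.

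The members kept a negative median in all 6 consecutive blocks of 9 or 10 genes. The block medians were −0.78 from *RPP25* to *FBXO22*, −0.50 from *ETFA* to *PSMA4*, −0.58 from *MORF4L1* to *BTBD1*, −0.66 from *ZNF592* to *POLG*, −0.67 from *TICRR* to *FURIN* and −0.46 from *MAN2A2* to *TARSL2*. The 82 other listed genes of the stretch, which are not on the list, had a median of −0.57. Of these, 71 were below 0 and 60 had separate groups in that direction, with a range from −3.08 for *AP3B2* to 0.61 for *CSPG4*. The stretch itself was chosen on this comparison, so these counts too are a description, beside the 25.1% of all genes with separate lower groups.

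**Figure D2:**
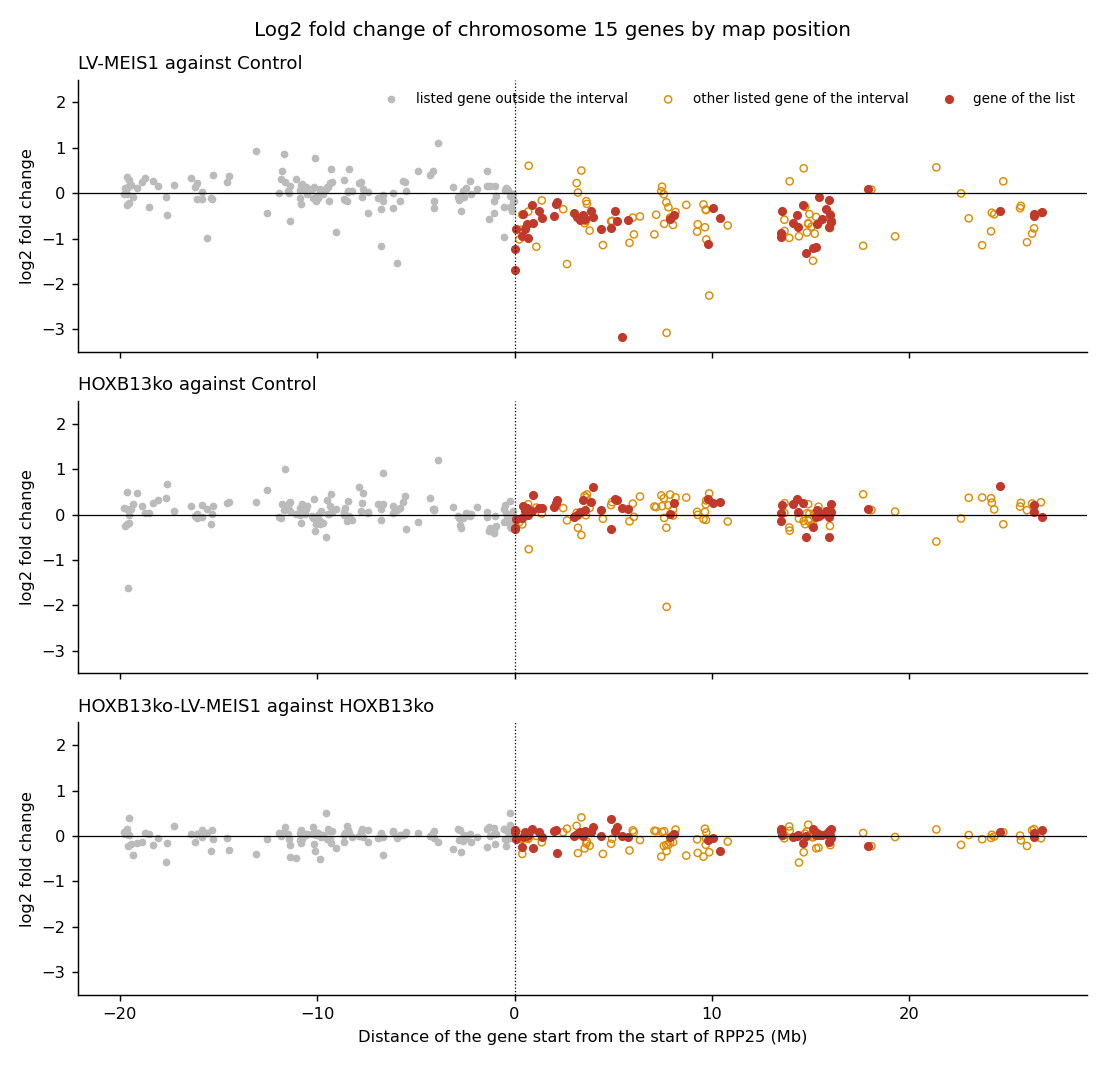
Log2 fold change of listed chromosome 15 genes (vertical axis) against the distance of the gene start from the start of RPP25 in Mb (horizontal axis), for 3 comparisons; filled red points are the genes of the list, open points the other listed genes of the stretch and grey points genes before it, from 20 Mb before RPP25. Right of the dotted line most points of the upper panel lie below 0, with a median of −0.56, and in the lower panels they scatter around 0.

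The sizes of the ratio were spread rather than even. The LV-MEIS1 to Control ratio was below 0.5 in 9 genes, from 0.5 to 0.6 in 8, from 0.6 to 0.7 in 16, from 0.7 to 0.8 in 17, from 0.8 to 0.9 in 5, between 0.9 and 1 in 1 gene and above 1 in 1 gene. The lowest were *ARNT2*, *SCAMP5* and *MESP1*, and the highest *CHD2*, *IQGAP1* and *MAN2A2*. On the log2 scale the nearest to the median were *CRTC3*, *PSMA4* and *WHAMM*.

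Chromatin and transcription genes held both ends of this range, with a median log2 fold change of −0.56 over 9 genes. *ARNT2*, a partner subunit of bHLH-PAS transcription factors, was at 8.03, 10.7 and 8.23 CPM in Control and at 0.690, 0.390 and 0.565 CPM in LV-MEIS1, which gives a log2 fold change of −3.18 ± 0.14 (standard error, with 3 libraries in each group). The groups were far apart, and the low values were still above 0.141 CPM, the largest level that 3 reads would give in these 3 libraries. *ARNT2* was at 8.81, 10.4 and 10.6 CPM in HOXB13ko and at 9.29, 9.96 and 10.6 CPM with exogenous MEIS1 in that pool. All 6 of these libraries lay within the Control range.

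*MESP1*, a bHLH transcription factor of early mesoderm, was at 6.86, 8.30 and 8.41 CPM in Control, at 2.82, 2.58 and 3.11 CPM in LV-MEIS1, at 5.92, 5.65 and 4.71 CPM in HOXB13ko and at 5.39, 5.26 and 5.42 CPM in HOXB13ko-LV-MEIS1. The Control libraries were the highest, LV-MEIS1 the lowest, and both HOXB13ko groups lay between without overlapping either. *ZNF592*, a zinc finger protein, was between 98.1 and 102 CPM in Control and between 42.6 and 48.9 CPM in LV-MEIS1. *CRTC3*, a CREB coactivator, was at 29.3, 25.4 and 28.1 CPM in Control and at 18.2, 20.1 and 17.3 CPM in LV-MEIS1, the middle value of the list at −0.56 ± 0.08. *SIN3A*, the scaffold of a histone deacetylase complex, *MORF4L1*, a chromodomain subunit of histone acetyltransferase complexes, *WDR61*, a subunit of the PAF1 and SKI complexes, and *MEF2A*, a MADS-box factor, lay between −0.58 and −0.40, and all 4 had separate groups.

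*CHD2*, a chromatin remodeller, was the only member above 0. Its libraries were at 94.2, 91.3 and 103 CPM in Control and at 94.9, 109 and 104 CPM in LV-MEIS1, and the groups overlapped (0.09 ± 0.07). In the map it is followed by 4 listed members with lower values, *MEF2A*, *SNRPA1*, *PCSK6* and *TARSL2*. The listed genes between *CHD2* and *MEF2A*, none of them a member, ranged from −1.15 (*IGF1R*) to 0.57 (*NR2F2*). The listed neighbours of *CHD2* differed, with *RGMA* on the distal side at 0.08 and *FAM174B* on the other side at −1.16.

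Genes of RNA processing and translation had the lowest group median, −0.78 over 8 genes, and all 8 had separate groups. *RPP25*, a protein subunit of RNase P and RNase MRP, was at 23.0, 31.7 and 26.02 CPM in Control and at 10.9, 11.3 and 11.2 CPM in LV-MEIS1. *IMP3*, a protein of the U3 small nucleolar ribonucleoprotein, was between 57.2 and 61.5 CPM in Control and between 27.0 and 32.3 CPM in LV-MEIS1 (−0.99 ± 0.08). The mitochondrial ribosome genes *MRPL46* and *MRPS11* lie head to head, with starts 63 bases apart. *MRPL46* had a log2 fold change of −0.97 ± 0.09 and *MRPS11* of −0.89 ± 0.09. *SNUPN*, which carries capped snRNPs into the nucleus, *NGRN*, which acts in mitochondrial RNA metabolism, *SNRPA1*, a U2 snRNP protein, and *TARSL2*, a threonyl-tRNA synthetase, lay between −0.67 and −0.42.

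The mitochondrial and metabolic genes had a median of −0.75 over 9 genes, with all 9 separate. *IDH2*, the NADP-dependent isocitrate dehydrogenase of mitochondria, was at 104, 116 and 105 CPM in Control and at 51.4, 45.0 and 44.9 CPM in LV-MEIS1 (−1.20 ± 0.06). *IDH3A*, the catalytic subunit of the NAD-dependent enzyme of the citric acid cycle, was between 82.6 and 86.4 CPM in Control and between 56.2 and 62.1 CPM in LV-MEIS1 (−0.52 ± 0.05). *POLG*, the mitochondrial DNA polymerase, was between 82.9 and 94.4 CPM in Control and between 48.2 and 54.0 CPM in LV-MEIS1. *MAN2C1*, an alpha-mannosidase, *PPCDC* of coenzyme A synthesis, *MTHFS* of folate metabolism, *FAH* of tyrosine breakdown, *IREB2*, an iron-responsive RNA-binding protein, and *ETFA*, an electron transfer flavoprotein, lay between −0.94 and −0.39.

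Genes of the secretory pathway had a median of −0.58 over 8 genes. *SCAMP5*, a secretory carrier membrane protein, was at 13.8, 12.8 and 13.1 CPM in Control and at 3.99, 3.99 and 3.41 CPM in LV-MEIS1 (−1.68 ± 0.10). Its annotated start lies 447 bases from that of *RPP25* on the opposite strand. *MAN2A2*, a Golgi mannosidase, was at 56.8, 56.7 and 54.2 CPM in Control and at 48.0, 49.5 and 52.7 CPM in LV-MEIS1, a small but separate difference (−0.16 ± 0.06). Its neighbour *FURIN*, a proprotein convertase, was between 47.0 and 54.0 CPM in Control and between 27.1 and 31.5 CPM in LV-MEIS1 (−0.75 ± 0.09). *TMED3*, *VPS33B*, *SCAPER* and *PCSK6*, which act in cargo transport, vesicle fusion, the endoplasmic reticulum and propeptide cleavage, lay between −0.78 and −0.50, and *TSPAN3*, a tetraspanin, was at −0.23 ± 0.05.

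Signalling and cytoskeleton genes had a median of −0.56 over 10 genes, of which 8 had separate groups. *CIB1*, a calcium- and integrin-binding protein, was at 74.7, 96.5 and 93.1 CPM in Control and at 38.9, 38.7 and 37.7 CPM in LV-MEIS1 (−1.18 ± 0.08). *WHAMM*, an activator of actin nucleation, was at 12.01, 12.15 and 11.34 CPM in Control and at 8.30, 8.06 and 6.99 CPM in LV-MEIS1. *IQGAP1*, a scaffold of actin and small GTPase signalling, was at 176, 150 and 159 CPM in Control and at 147, 164 and 149 CPM in LV-MEIS1, and the groups overlapped (−0.07 ± 0.06). *PEAK1*, a pseudokinase scaffold, was at 8.84, 8.23 and 10.4 CPM in Control and at 6.79, 8.13 and 8.97 CPM in LV-MEIS1, also with overlap (−0.19 ± 0.12). *PTPN9*, *ABHD2*, *ABHD17C*, *AKAP13*, *TBC1D2B* and *PDE8A* lay between −0.79 and −0.33. *IQGAP1* lies between *NGRN* (−0.67) and *CRTC3* (−0.56) on the map, so a member close to its Control level had lower neighbours on both sides.

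Genes of protein folding and turnover had a median of −0.48 over 9 genes. *PSMA4*, a subunit of the 20S proteasome, was at 114, 118 and 130 CPM in Control and at 85.6, 82.5 and 75.1 CPM in LV-MEIS1 (−0.57 ± 0.06). *UBE2Q2*, a ubiquitin-conjugating enzyme, was at 28.0, 21.1 and 24.98 CPM in Control and at 17.9, 22.6 and 21.0 CPM in LV-MEIS1, and was the fourth member whose groups overlapped (−0.26 ± 0.10). *FBXO22*, *CTSH*, *RCN2*, *BTBD1*, *UNC45A*, *DET1* and *ZFAND6* lay between −0.65 and −0.39.

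The 4 genes of genome maintenance and mitosis had the smallest median, −0.41, and all 4 had separate groups. *PRC1*, which bundles microtubules of the spindle midzone, was between 209 and 225 CPM in Control and between 134 and 143 CPM in LV-MEIS1 (−0.63 ± 0.05). *FANCI*, a protein of the Fanconi anaemia pathway, was at −0.47 ± 0.04. *BLM*, the helicase lost in Bloom syndrome, was at −0.34 ± 0.08 and *TICRR*, which acts in replication initiation, at −0.27 ± 0.08. Within groups the genes varied widely, from −1.23 to −0.42 among the RNA processing genes alone.

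**Figure D3:**
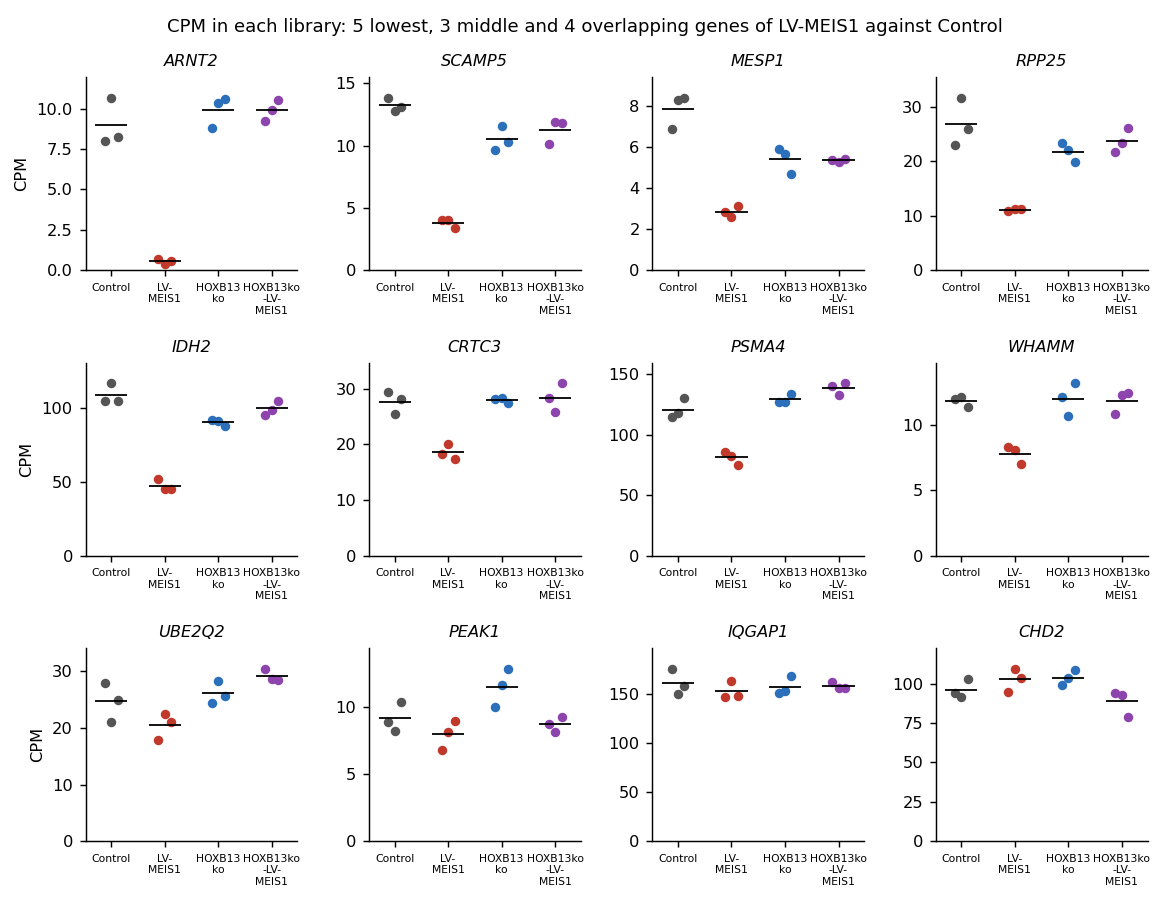
CPM (vertical axes, from 0) of 12 distal 15q genes in each of the 12 libraries, with a bar at each group mean: the 5 with the lowest, the 3 nearest the median and the 4 with overlapping groups in LV-MEIS1 against Control. ARNT2 lies below 0.70 CPM in LV-MEIS1 only, and CHD2 and IQGAP1 overlap between LV-MEIS1 and Control.

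Some members share properties that the choice did not use, and these are given across genes as a description, since genes are not independent replicates and share libraries and base composition. The LV-MEIS1 log2 fold change had a Spearman correlation of −0.44 with the GC content of the transcript and of 0.42 with the gene's span over the 57 members. Over all 13667 genes with a position the same values were −0.31 and 0.15. In HOXB13ko against Control the members had −0.44 and 0.43 and all genes −0.51 and 0.32, so these trends are not particular to LV-MEIS1. In HOXB13ko-LV-MEIS1 against HOXB13ko the members had −0.11 and −0.34. The 28 members with the shortest span had a median of −0.63 and the 29 longest of −0.47. Head-to-head pairs with a member and starts at most 1000 bases apart had like values in some cases and not in others. Those of 2 members were *RPP25* (−1.23) with *SCAMP5* (−1.68) and *MRPL46* (−0.97) with *MRPS11* (−0.89). In the following pairs the partner was not on the list. *IDH3A* (−0.52) starts 37 bases from *CIB2*, which was at 0.22 ± 0.17. *IMP3* (−0.99) stood beside *SNX33* at −0.41, and *CIB1* (−1.18) beside *GDPGP1* at −0.52. *MORF4L1*, at −0.40, stood beside a lower gene, *ADAMTS7*, at −0.82. Members on the plus strand had a median of −0.55 (n = 31) and those on the minus strand of −0.60 (n = 26). The strand of the gene was not used in counting, and 14 members overlap a protein-coding gene on the opposite strand, among them the pair *FANCI* and *POLG*, and 9 overlap one on the same strand, such as *SNRPA1* and *PCSK6*, so part of their reads may be shared with the neighbour. *UBE2Q2* and *WHAMM* have near-identical pseudogene copies and their levels are uncertain for the same reason.

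In HOXB13ko against Control, which shares the Control libraries with the comparison that chose the list, the members had a median of 0.09 and 41 of 57 were above 0. All HOXB13ko libraries were above each Control library for 21 members and below them for 5, where 21.8% of all genes were higher and 23.1% lower in that sense. No test is given. *MEF2A* was the highest, with 38.6, 32.4 and 35.4 CPM in Control and 53.2, 55.9 and 56.5 CPM in HOXB13ko (0.63 ± 0.07). *CTSH*, a lysosomal cathepsin, was between 18.1 and 20.5 CPM in Control and between 29.0 and 32.2 CPM in HOXB13ko (0.61 ± 0.08). Both genes were lower than Control in LV-MEIS1. *FURIN* was the lowest, with 50.5, 54.0 and 47.0 CPM in Control and 39.0, 35.2 and 32.7 CPM in HOXB13ko (−0.50 ± 0.09), and *MESP1* followed at −0.50 ± 0.12. These 2 and *SCAMP5*, *MRPL46* and *IDH2* were the 5 members lower in both LV-MEIS1 and HOXB13ko than in all Control libraries.

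Whether the same genes move when MEIS1 is introduced into the pool labelled HOXB13ko was tested. Neither group of this comparison chose the list. The spread in the test was estimated from all 12 libraries, with those of Control and LV-MEIS1 among them. In HOXB13ko-LV-MEIS1 against HOXB13ko the members' median log2 fold change was 0.02, with 35 above and 22 below 0. No member passed limma's treat test against a fold change of 1.5 at an adjusted p-value under 0.05, and 0 had an unadjusted treat p-value under 0.05. With only the 6 libraries compared in the fit, the number that passed treat was also 0. The members' median ratio in LV-MEIS1 against Control, 0.672, is itself a smaller change than 1.5-fold. In simulated data treat called 71% of genes changed 2-fold and 99% of those changed 4-fold. Many members could thus fail treat even with the same shift, and its count of 0 does not show that they stayed still. With limma's eBayes test against no change 0 passed after adjustment and 12 had an unadjusted p-value under 0.05, where 14.8% of all genes did. Over all genes the treat test called 1 gene (0.00717%) and the eBayes test called 7 (0.0502%), so few calls were made in this comparison anywhere. All HOXB13ko-LV-MEIS1 libraries lay above all HOXB13ko libraries for 10 members and below them for 5, with 10.6% of all genes in each direction. *MEIS1* mRNA was also lower in this pair than in LV-MEIS1, as given above, and its part in the difference was not tested.

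The intervals give the size of change that these data leave possible. The 95% interval of the members had a median half-width of 0.17, and 45 of the 57 intervals hold 0. For 52 members the interval did not include the member's own LV-MEIS1 against Control value, which was among the values that chose the list. That value was taken without its own error and was chosen for being low. The count is therefore a description and no test of a difference between the pairs. *ARNT2*, at −3.18 in LV-MEIS1, was at 0.00 ± 0.14, and *IDH2* at 0.14 ± 0.06 with all 3 HOXB13ko-LV-MEIS1 libraries (95.1, 98.5 and 105 CPM) above those of HOXB13ko (91.5, 91.1 and 87.4 CPM). The exceptions were *PEAK1*, *AKAP13*, *TICRR*, *IQGAP1* and *MAN2A2*, whose intervals include their LV-MEIS1 value.

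*PEAK1* had the lowest value of this pair, with 10.0, 11.6 and 12.8 CPM in HOXB13ko and 8.73, 8.11 and 9.26 CPM in HOXB13ko-LV-MEIS1, a log2 fold change of −0.38 ± 0.12 with an eBayes adjusted p-value of 0.197. *AKAP13*, an anchoring protein for protein kinase A, followed at −0.32 ± 0.12, with 36.0, 44.4 and 44.2 CPM in HOXB13ko and 34.1, 30.9 and 33.8 CPM in HOXB13ko-LV-MEIS1. Both were separate between the groups but missed the threshold. *MTHFS* had the highest value, 0.37 ± 0.17, with 4.39, 6.10 and 4.06 CPM in HOXB13ko and 6.64, 7.14 and 5.34 CPM in HOXB13ko-LV-MEIS1, where the groups overlapped. *PRC1* had the lowest eBayes adjusted p-value of the members, 0.176, at 0.16 ± 0.05. *CHD2*, whose groups overlapped in LV-MEIS1 against Control, was at 99.3, 104 and 109 CPM in HOXB13ko and at 94.1, 93.0 and 79.1 CPM in HOXB13ko-LV-MEIS1 (−0.23 ± 0.07, eBayes adjusted p-value of 0.193).

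**Figure D4:**
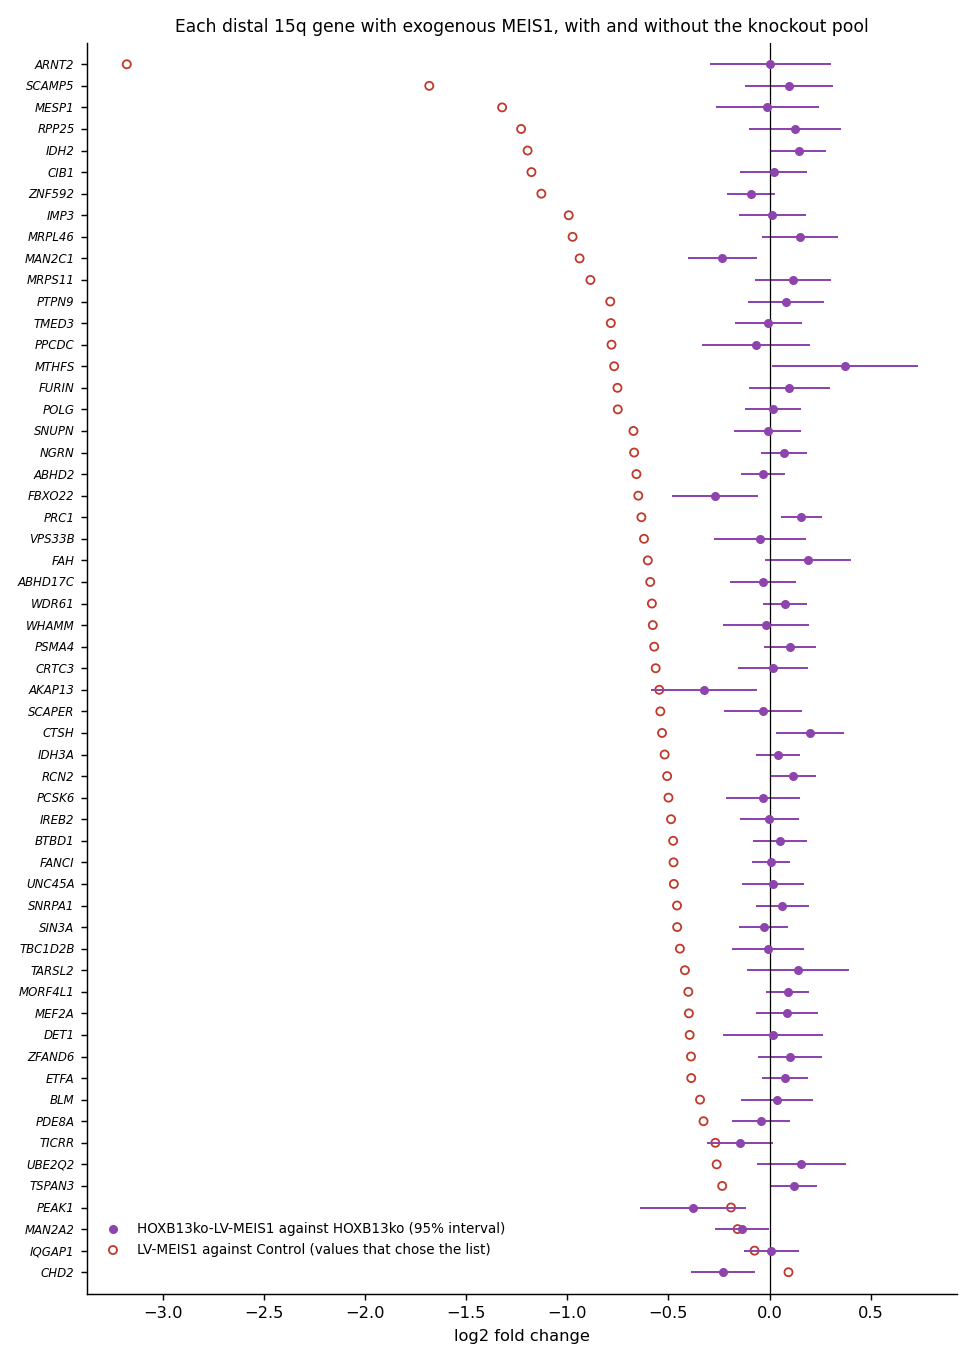
Log2 fold change (horizontal axis) of each of the 57 genes in HOXB13ko-LV-MEIS1 against HOXB13ko (filled, with its 95% interval) and in LV-MEIS1 against Control (open, the values that chose the list), ordered by the latter. The filled points lie between −0.38 and 0.37, and 52 of 57 intervals leave out the open point, whose own error is not used.

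Genes that work with a member but lie outside the stretch were examined in LV-MEIS1 against Control. Of 64 complex partners of 18 members, 63 are listed, and their median log2 fold change was −0.04. None of the 63 passed the treat test, and 0 had an unadjusted treat p-value under 0.05, where 3.99% of all genes passed after adjustment. With the eBayes test 28 passed, 9 higher and 19 lower, where 44.5% of all genes did. The member was below the median of its partners for all 18, and each of the 63 partners was above its member. Since members were chosen for low values, this order is a description.

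*PSMA4* was at −0.57, and the 6 other alpha subunits of the 20S proteasome core ring ranged from −0.41 (*PSMA7*, eBayes adjusted p-value 4.4e-04) to 0.01 (*PSMA1*). *RPP25* was at −1.23 and its 9 listed partners in RNase P and RNase MRP ranged from −0.51 (*POP7*) to 0.12 (*RPP40*). *POP7* was the lowest of all partners, at 46.4 CPM in Control and 32.1 CPM in LV-MEIS1 (−0.51 ± 0.11, eBayes adjusted p-value 0.00122). Both partners of *IDH3A* were also below 0, with *IDH3B* at −0.44 ± 0.06 and *IDH3G* at −0.30 ± 0.08 beside −0.52 for *IDH3A*. *PRC1* stood on the other side of its partners, since the kinesins *KIF4A* (0.20 ± 0.05, eBayes adjusted p-value 0.00335) and *KIF14* (0.21 ± 0.06, eBayes adjusted p-value 0.0102) were higher in LV-MEIS1. *SKP1*, the adaptor that joins *FBXO22* to its ubiquitin ligase, was at 0.33 ± 0.04, the partner with the lowest eBayes adjusted p-value (3.8e-05). *SKIV2L*, a helicase that binds the protein of *WDR61*, had the highest value, 1.33, with a standard error of 0.87, and did not pass either test.

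Of 37 paralogs of members, 36 are listed, with a median of 0.06. They belong to 23 members, among them *DNAJA4* and *CPEB1*, which have no values here, and 31 belong to the 21 members with values. *ACO1*, the cytosolic aconitase that is the paralog of *IREB2*, was the only one to pass the treat test, at 25.4 CPM in Control and 48.5 CPM in LV-MEIS1 (0.92 ± 0.06, adjusted p-value 0.00208). It rose while *IREB2* was at −0.49. Over all genes 3.99% passed treat, so 1 call among 36 paralogs is not more than that share. The eBayes test passed 21 of the 36, of which 10 were higher and 11 lower, where 44.5% of all genes passed. *ARNT*, the paralog of *ARNT2*, was at 0.34 ± 0.05 (eBayes adjusted p-value 1.1e-04) and *IDH1*, the cytosolic counterpart of *IDH2*, at 0.15 ± 0.04 (eBayes adjusted p-value 0.0121). The 4 paralogs of *SCAMP5* lay between −0.27 and 0.21. For 19 of the 21 members with values and a listed paralog the member was below its paralogs' median. The exceptions were *IQGAP1*, with *IQGAP2* at −0.86 ± 0.16, and *MEF2A*, with *MEF2B* at −0.72 ± 0.26 and *MEF2C* at −0.51 ± 0.14. In HOXB13ko-LV-MEIS1 against HOXB13ko, 0 partners and 0 paralogs passed limma's treat or eBayes test after adjustment. An unadjusted eBayes p-value under 0.05 was found for 7 of 63 partners and 9 of 36 paralogs, where 14.8% of all genes had one.

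**Figure D5:**
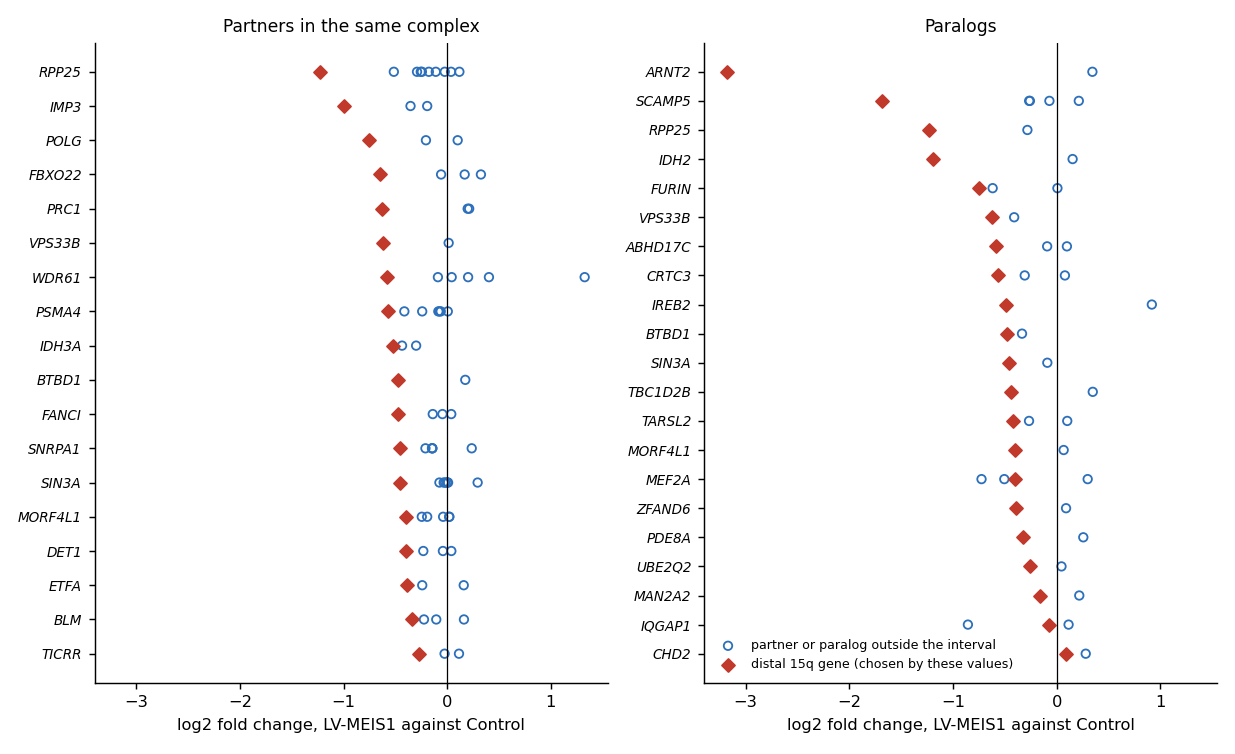
Log2 fold change in LV-MEIS1 against Control (horizontal axis) of members (red diamonds, chosen by these values) and of their complex partners (left) or paralogs (right), 1 row per member. All 63 partners lie to the right of their member, and IQGAP1 and MEF2A have paralogs to the left.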

How the data were processed

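Libraries were poly-A selected and strand-specific, and were read single-end at 50 bp. Per the labels and methods, the authors trimmed reads with Trimmomatic 0.38, assigned them to Ensembl GRCh38 transcripts with kallisto 0.43.1 without using strand, summed them to genes, removed low genes and normalised in edgeR 3.22.2. The deposited values are these CPM by gene symbol. Rows that repeated another exactly (42) were left out. Depth is not stated in the files, and steps between values under 1 CPM gave estimates from 17100000 to 36200000 reads per library. Only 47.9% to 63.7% of those values lay within 0.1 of a whole read, so no count model was used.

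R 4.3.3 and limma 3.58.1 were used to model log2(CPM + 0.5) in the 12 libraries with 1 mean per group, with treat against a fold change of 1.5 and Benjamini-Hochberg adjustment over 13951 genes, and the code was tested on simulated data. Fold changes on this scale understate those of low genes. Positions came from GENCODE on GRCh38 (13667 genes matched, 460 through an older symbol). Members, role groups and partner lists were chosen with earlier results of these data known. Genes were named by a rule: 3 lowest, 3 highest and 3 middle members, all members with overlapping groups, extremes of the other comparisons, and called partners or paralogs. Other members are given by role, and some luminal markers and neighbouring genes are not reported here. *AP3B2*, *CSPG4*, *RGMA*, *FAM174B*, *NR2F2*, *IGF1R*, *SEMA7A*, *ARID3B*, head-to-head neighbours and all partners and paralogs other than *ACO1* were named after their values were seen. Alternatives were other pseudocounts, filters, scalings, a replicate term and leaving out each library. Python 3.11.15 and matplotlib 3.10.9 drew the figures.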

Additional observations from a re-analysis of the deposited data

Results flagged for a closer look

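Of the 57 members, 9 had all LV-MEIS1 libraries below all Control libraries and all HOXB13ko-LV-MEIS1 libraries above all HOXB13ko libraries, and were listed for these opposite directions. The difference between the pairs was not tested. Of all genes, 423 (3.03%) showed the same combination. The choice of the list set its first part, which 53 of the 57 members met against 25.1% of all genes. The members' count is thus not comparable with that share, and nothing is read from it. The log2 fold changes in HOXB13ko-LV-MEIS1 against HOXB13ko were 0.198 for *CTSH*, 0.157 for *PRC1*, 0.151 for *MRPL46*, 0.143 for *IDH2*, 0.12 for *TSPAN3*, 0.115 for *RCN2*, 0.115 for *MRPS11*, 0.089 for *MORF4L1* and 0.077 for *WDR61*. None of the 9 passed limma's treat or eBayes test after adjustment in that pair. Groups of 3 libraries are too small for a test of single outlying libraries.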

How the results depend on the processing

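The members' median in LV-MEIS1 against Control was −0.563 and lay between −0.586 and −0.546 under the 3 other scalings, −0.573 and −0.55 with pseudocounts of 0.1 and 1, and between −0.591 and −0.537 when each library was left out. Relative to chromosome 15 genes outside the stretch, an alternative chosen after seeing the data, it was −0.6. The count of members with separate groups was 53 under the scalings and 53 to 55 without single libraries. The median in HOXB13ko against Control (0.095) was 0.089 to 0.12 without single libraries, and that in HOXB13ko-LV-MEIS1 against HOXB13ko (0.017) was between −0.005 and 0.037 under the scalings, so its sign is not settled, and 0.017 to 0.04 without single libraries. The counts of members (0), partners (0) and paralogs (1) that passed limma's treat test were the same under all alternatives that kept treat. Without its fold threshold the counts for partners and paralogs were 28 and 21, where 44.5% of all genes passed. No pairing by replicate number was visible. Deviations of same-numbered libraries correlated between −0.207 and 0.145 across genes, and those of differently numbered libraries between −0.26 and 0.264. Whether the samples were handled in pairs cannot be told from these values. With a replicate block 0 members, 0 partners and 1 paralog passed, and 522 genes in all in LV-MEIS1 against Control, where 557 passed without it. A level of 3 reads is at most 0.1755 CPM at the estimated depths, and no member had a value that low in any library.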
